A study of Mus musculus with 8 samples.

Results

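Cell cycle genes are transcribed in waves as a cell copies its genome and divides. A set of 44 of them was read from a table of 52195 genes in bulk mouse tissue. The genes were chosen by symbol, from a list of genes of DNA replication and cell division, and all 44 symbols were present in the table. By role, 19 belong to S phase, in which DNA is copied, and 25 to mitosis, in which the copies are separated.

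The study sequenced polyadenylated RNA of 4 healthy tissues, small intestine, lung, liver and kidney, with 2 libraries per tissue. The mice were of the C57BL/6 strain (male C57BL/6J by the methods of the study) and 6 to 10 weeks old, and no transgene, mutation or treatment is named for any group. The 4 tissues were excised from each mouse, but no label ties a replicate number to one animal. The tissues are compared in the level of transcripts of dividing cells and in the balance of S phase and mitotic transcripts.

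As background, entry into S phase follows release of E2F transcription factors from retinoblastoma family proteins, and E2F factors then drive genes for replication enzymes and nucleotide synthesis. Later genes, which act in G2 and mitosis, are held down in resting cells by the DREAM complex and driven in cycling cells by MYBL2 and FOXM1, and their promoters often carry a cell cycle homology region, abbreviated CHR, and CCAAT boxes. In the adult, the epithelium of the small intestine is renewed from crypts of cycling cells, while most cells of the liver and kidney are at rest.

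The promoters of the members were searched for these motifs. RefSeq promoter windows on the GRCm38 build (GRCm38.p6), each running from 250 bases before to 50 bases after an annotated start of transcription, were found for 35 members, 16 of S phase and 19 of mitosis. Kif20a, Ccna2, Foxm1, Mcm4, Gmnn, Cdc25c, Aurkb, Ccne2 and Tpx2 had no window. Motifs of 3 kinds were searched on both strands, the CHR (TTTGAA or TTCGAA, with TTCAAA as its other strand), the CCAAT box (CCAAT or ATTGG) and the E2F motif (TTTCGCGC or TTTGGCGC or TTTGGCGG or TTTCCCGC and their other strands). Overlapping matches, such as the pair of E2F matches within one run in Mcm6 and Mcm5, were each kept, and a gene was counted once per motif. Mcm7 and Prc1 have 2 annotated starts, and both windows were searched.

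The stretches below hold motifs of 5 mitotic genes and of 3 S phase genes. They are shown because the mitotic genes include some of the largest differences between tissues described further on, while Mcm6, Mcm5 and Cdc6 carry E2F motifs and no CHR. Each is printed 5′ to 3′ on the strand of its gene, with motifs in capitals. Cdk1 also holds an E2F motif. Against the GENCODE M21 annotation, the stretches of Top2a, Kif11, Mcm6 and Mcm5 lie before the gene, those of Ube2c, Cdc20 and Cdk1 run into the first exon by 31, 9 and 26 bases, and that of Cdc6 lies in an intron, after an earlier start.
Ube2c, chr2:164769809-164769928, plus strand: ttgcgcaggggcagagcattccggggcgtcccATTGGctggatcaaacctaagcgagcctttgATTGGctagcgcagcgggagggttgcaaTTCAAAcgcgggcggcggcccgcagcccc
Cdc20, chr4:118437344-118437463, minus strand: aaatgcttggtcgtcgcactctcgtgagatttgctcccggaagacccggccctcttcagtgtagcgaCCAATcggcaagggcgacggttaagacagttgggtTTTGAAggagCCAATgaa
Top2a, chr11:99024190-99024349, minus strand: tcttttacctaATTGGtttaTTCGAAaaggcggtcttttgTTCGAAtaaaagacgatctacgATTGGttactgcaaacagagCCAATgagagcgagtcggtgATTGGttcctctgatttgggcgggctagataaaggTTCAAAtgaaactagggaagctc
Kif11, chr19:37376262-37376381, plus strand: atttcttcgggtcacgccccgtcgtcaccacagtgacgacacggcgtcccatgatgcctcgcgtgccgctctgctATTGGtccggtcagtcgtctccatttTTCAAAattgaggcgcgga
Cdk1, chr10:69352913-69353072, minus strand: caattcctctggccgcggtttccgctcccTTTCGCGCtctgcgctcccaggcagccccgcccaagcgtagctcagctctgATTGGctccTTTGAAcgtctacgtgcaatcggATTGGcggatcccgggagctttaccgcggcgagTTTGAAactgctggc
Mcm6, chr1:128359706-128359865, minus strand: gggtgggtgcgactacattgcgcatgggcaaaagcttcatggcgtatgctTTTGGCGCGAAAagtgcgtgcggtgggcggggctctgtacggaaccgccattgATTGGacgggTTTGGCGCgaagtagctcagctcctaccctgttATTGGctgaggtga
Mcm5, chr8:75109349-75109508, plus strand: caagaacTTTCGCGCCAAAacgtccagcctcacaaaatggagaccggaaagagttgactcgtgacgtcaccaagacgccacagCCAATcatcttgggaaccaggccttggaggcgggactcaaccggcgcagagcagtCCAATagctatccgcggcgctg
Cdc6, chr11:98907991-98908150, plus strand: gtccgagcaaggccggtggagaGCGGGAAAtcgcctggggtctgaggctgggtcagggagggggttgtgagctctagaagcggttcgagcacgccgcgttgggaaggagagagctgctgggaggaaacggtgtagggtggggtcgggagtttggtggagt
A CHR was found in the windows of 15 of 19 mitotic members (78.9%) and of 3 of 16 S phase members (18.8%), against 21.7% of the windows of all 27025 genes in the RefSeq table. All 15 of those mitotic genes and all 3 of those S phase genes also held a CCAAT box, a combination found in 9.65% of all genes. CCAAT boxes, with or without a CHR, were found in 17 of 19 mitotic members (89.5%), in 9 of 16 S phase members (56.2%) and in 41.1% of all genes. The order was the opposite for the E2F motif, which was present in 6 of 16 S phase members (37.5%), Cdc6, Cdt1, Mcm3, Mcm5, Mcm6 and Mcm7, and in 1 of 19 mitotic members, Cdk1, against 2.70% of all genes. Among the 10493 genes with a window that passed the filter given below, the shares were 17.0% for the CHR and 42.3% for the CCAAT box. They were 8.07% for both together and 4.37% for the E2F motif. A match describes the letters of the window only. No binding was measured, and the absence of a match says nothing about a factor.

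**Figure D1:**
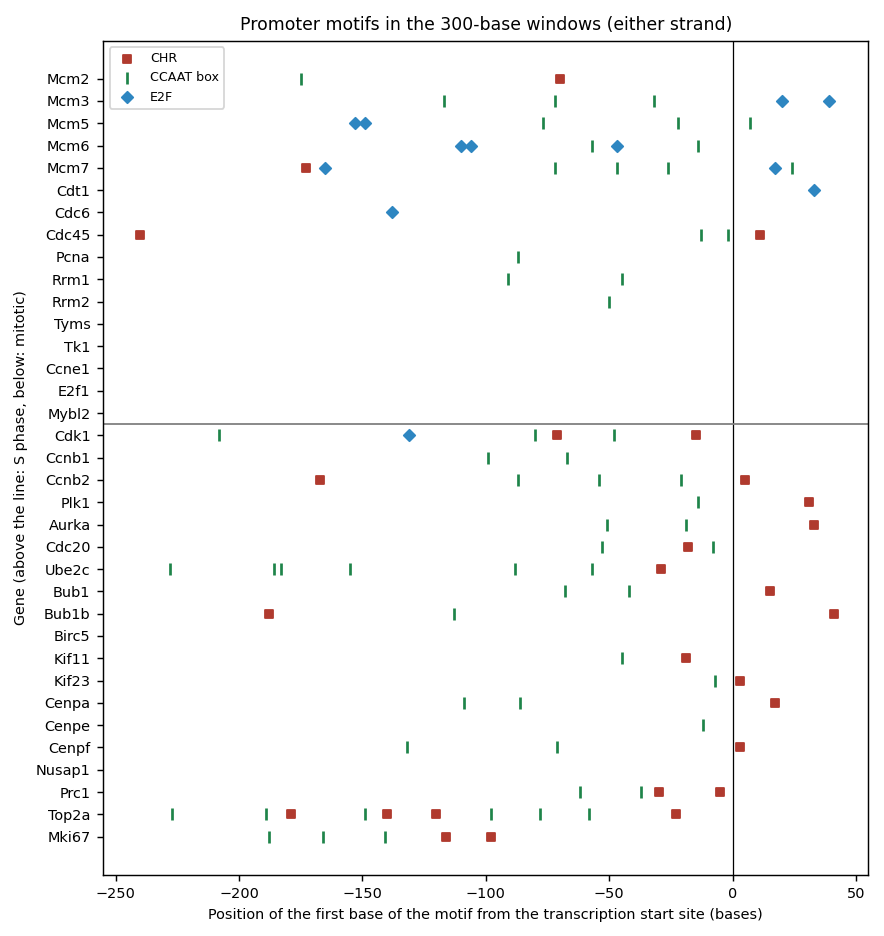
Positions of motifs in the promoter windows of 35 cell cycle genes, with distance in bases from the start of transcription on the x axis and 1 gene per line, S phase genes above the grey line and mitotic genes below it. Red squares are CHR, green bars CCAAT boxes and blue diamonds E2F motifs. CHR within 100 bases of the start are found in 15 mitotic and 2 S phase genes, and E2F motifs within that distance in 4 S phase genes and in 0 mitotic genes.

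Levels are given as FPKM, in which the fragments of a gene are set against a gene length and the depth of the library. Each library was divided by one size factor (median of ratios over 15137 genes above 0 in every library). The result is called scaled FPKM here. The length that fits the values is that of all annotated exons, from 1465 bases in Gmnn to 15433 in Cenpf. Transcripts can be shorter, so levels of different genes are compared only roughly. The libraries held 9164168 to 21444663 reads counted on genes, and each tissue showed the highest summed level of its own 4 marker genes. In scaled FPKM these sums were 4720 to 6829 for small intestine (at most 90.4 elsewhere), 33140 to 38962 for lung (at most 134 elsewhere), 66753 to 84580 for liver (at most 210 elsewhere) and 1774 to 1855 for kidney (at most 5.60 elsewhere). Tests used limma on log2(scaled FPKM + 1) over 15542 genes, those at 1 or more in at least 2 libraries, and calls needed an adjusted p under 0.05 (Benjamini-Hochberg) and a log2 difference over 1. Fold changes on this scale understate those of low genes. All 19 S phase members and 23 of 25 mitotic members passed the filter, and Cenpf and Prc1 did not. Of the 42 that passed, 9 members (Cdc6, Ccne1, Ccne2, Mybl2, Cdc25c, Foxm1, Bub1, Kif20a and Cenpe) passed through the small intestine libraries only, so that their calls against the other tissues are partly set by the filter.

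Small intestine had the highest level of 41 of the 44 members, and in each of those both of its libraries lay above all 6 others. Among all genes tested, 17.2% had that pattern. All 25 mitotic members showed it, and 16 of 19 S phase members. The exceptions were Mcm4 and E2f1, highest in lung, and Tk1, highest in liver. The S phase count depended on the scaling. In the FPKM as deposited all 25 mitotic members still had both small intestine libraries above the other 6, but 11 of 19 S phase members did, where 12.8% of all genes had that pattern. There Mcm3, Mcm4, Mcm7 and E2f1 were highest in lung, small intestine and lung overlapped in Mcm6, Pcna, Rrm1 and Ccne2, and Tk1 was highest in small intestine. Lung came next. Both lung libraries exceeded all liver and kidney libraries for 39 members, 24 mitotic and 15 of S phase, where 29.6% of all genes did so, and for 42 members in the FPKM as deposited, where 65.1% did. The median over the 44 members of log2(scaled FPKM + 1) was 2.59 ± 0.0201 in small intestine, 1.28 ± 0.0646 in lung, 0.525 ± 0.0279 in liver and 0.406 ± 0.0316 in kidney (SD, n = 2 each). Liver and kidney were lowest about equally often, for 21 and 22 members. In bulk tissue, fewer dividing cells and less RNA of these genes per dividing cell cannot be told apart.

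**Figure D2:**
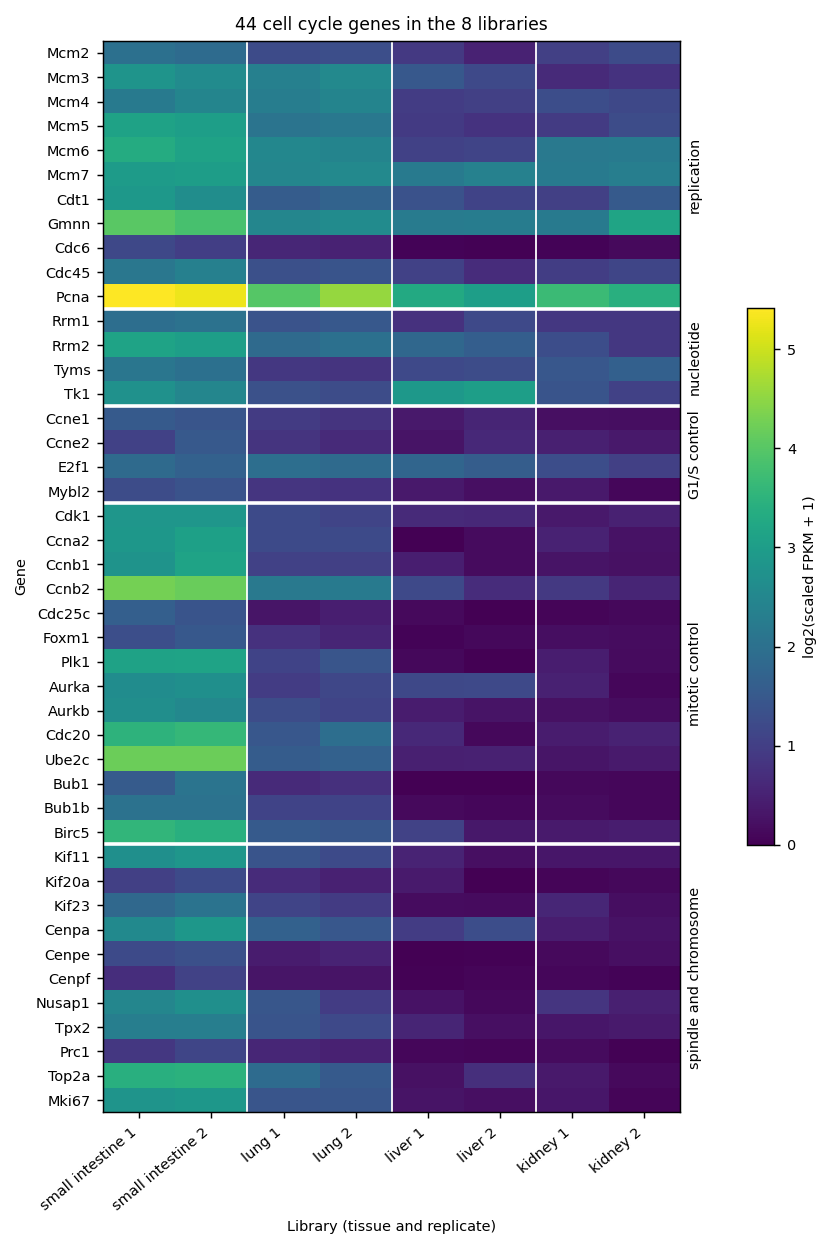
Levels of the 44 cell cycle genes in the 8 libraries, as log2(scaled FPKM + 1), with genes grouped by role. Small intestine is brightest in 41 genes, and mitotic genes in the lower blocks darken more from lung to liver and kidney than replication genes at the top.

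The genes that copy DNA form the largest S phase group, with 11 members. Pcna, the sliding clamp that holds DNA polymerases on the template, had the highest scaled FPKM of the members in every tissue. It was at 41.6 and 37.6 in small intestine, 14.8 and 22.6 in lung, 8.83 and 7.23 in liver, while kidney had 11.9 and 9.64. The libraries of the 4 tissues did not overlap, with kidney above liver. The log2 difference of small intestine was 1.07 ± 0.23 (SE) over lung, with an adjusted p of 0.00619, and 2.17 ± 0.23 over liver, with an adjusted p of 0.000153. Without lung replicate 1, the lower of the lung libraries, the difference from lung was 0.78, and without small intestine replicate 1 it was 0.999, and neither was called.

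Mcm2 to Mcm7 encode the 6 subunits of the ring helicase that unwinds DNA, and their transcripts did not share one order. Mcm2 was measured at 3.0 and 2.72 scaled FPKM in small intestine, 1.34 and 1.47 in lung, 0.855 and 0.423 in liver, with 1.03 and 1.34 in kidney, so that lung and kidney met. Mcm5 was at 7.65 and 7.18 in small intestine, 3.22 and 3.47 in lung, 0.893 and 0.737 in liver, while kidney had 0.921 and 1.39. Small intestine exceeded liver in Mcm5 by a log2 difference of 2.21 ± 0.16 (adjusted p = 1.66e-05), with no overlap between small intestine, lung and the other tissues.

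Mcm6 had 9.09 and 7.74 scaled FPKM in small intestine, 4.68 and 4.41 in lung, 1.06 and 1.16 in liver, with 3.53 and 3.66 in kidney. It is the single member called lower in liver than in kidney, with a log2 difference of -1.12 ± 0.15 (adjusted p = 0.000605). In Mcm3 kidney was the lowest tissue, with 5.92 and 5.12 in small intestine, 4.12 and 4.87 in lung, 1.80 and 1.28 in liver, while kidney had 0.569 and 0.730. For Mcm3 the difference of small intestine from lung, 0.25 ± 0.17, did not pass the test (adjusted p = 0.272) and was -0.43 with the FPKM as deposited, while lung exceeded kidney by 1.73 ± 0.17 (adjusted p = 8.56e-05). Lung and small intestine overlapped in Mcm4, with 3.94 and 4.42 in lung, 3.68 and 4.52 in small intestine, 0.939 and 1.04 in liver, with 1.42 and 1.26 in kidney. The log2 difference of small intestine from lung in Mcm4 was -0.03, with a 95% interval from -0.38 to 0.33. As deposited, its FPKM of 4.05 and 4.72 in small intestine lay below 7.13 and 8.36 in lung, a difference of -0.70 that was under the size needed. Mcm7 varied least of the group, from 3.60 in kidney replicate 1 to 7.09 in small intestine replicate 2, and was called in no comparison. About 12.6% of its exon bases overlap other genes.

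Genes for loading of the helicase were also highest in small intestine. Gmnn encodes geminin, which blocks a second round of loading by holding CDT1. Its levels were 15.4 and 13.3 scaled FPKM in small intestine, 4.59 and 5.11 in lung, 3.79 and 3.80 in liver, while kidney had 3.72 and 7.98. The kidney libraries lay further apart than those of any other tissue, and they enclosed the values of lung and liver. Small intestine exceeded lung by a log2 difference of 1.39 ± 0.28 (adjusted p = 0.00455). Cdt1 itself and Cdc6, the loading factors, were 2.74 and 2.46 times as high in small intestine as in lung, of which the difference of Cdt1 was called. Cdc6 was low everywhere, at 1.26 and 1.02 in small intestine, and 1 read lay behind its value in each liver library. Cdc45, a helicase cofactor, was called higher in small intestine than in liver and kidney but not lung.

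Of the 4 genes of nucleotide synthesis, 2 followed the order of the set and 2 did not. Rrm2, the regulatory subunit of ribonucleotide reductase, was at 7.88 and 7.2 scaled FPKM in small intestine, 2.67 and 3.01 in lung, 2.5 and 2.07 in liver, with 1.43 and 0.844 in kidney, with no overlap between tissues. Its partner Rrm1, the catalytic subunit, was at 2.88 and 3.13 in small intestine, 1.60 and 1.80 in lung, 0.702 and 1.28 in liver, while kidney had 0.824 and 0.849. Small intestine exceeded kidney by log2 differences of 2.01 ± 0.18 in Rrm2 (adjusted p = 6.2e-05) and 1.12 ± 0.17 in Rrm1 (adjusted p = 0.000954).

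Tk1 encodes cytosolic thymidine kinase, which salvages thymidine, and it was the single member highest in liver. It was at 6.44 and 7.15 scaled FPKM in liver, 5.69 and 4.6 in small intestine, 1.52 and 1.39 in lung, and 1.67 and 1.07 in kidney. Both liver libraries lay above all others. Liver exceeded kidney by a log2 difference of 1.73 ± 0.18 (adjusted p = 0.000176), and the difference of lung from liver was -1.67 ± 0.18 (adjusted p = 0.000126). The difference of small intestine from liver was -0.35, with a 95% interval from -0.77 to 0.08. With the FPKM as deposited, before scaling, that last difference was 0.38 in the other direction, and the difference of lung from liver was -0.43 and was not called. Tk1 rested on 169 and 240 reads in the liver libraries. Tyms, which makes thymidylate, was lowest in lung, at 0.827 and 0.768, against 3.33 and 3.01 in small intestine, 1.30 and 1.4 in liver, with 1.78 and 2.16 in kidney. The differences of lung from liver and kidney, -0.39 and -0.72, stayed under the size needed for a call, and that from liver turned to 0.46 with the FPKM as deposited.

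Among erythroid markers, Alas2, which makes heme in red cell precursors, was at 64.5 and 50.4 scaled FPKM in liver and at most 9.69 elsewhere, and Klf1, an erythroid transcription factor, at 1.30 and 2.53 in liver and at most 1.25 elsewhere, while the hemoglobin genes Hba-a1 and Hbb-bs were highest in lung. The 5 erythroid markers summed to 716 to 751 in liver, 5793 to 7090 in lung, 456 to 1797 in kidney and 51.2 to 161 in small intestine. Of 4 tested 1, Alas2, was called higher in liver than in kidney (background 11.6%). The part of such cells in the level of Tk1 was not tested.

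The 4 members grouped as control of the G1 to S transition were low throughout. Ccne1, cyclin E1, was at 1.90 and 1.68 scaled FPKM in small intestine, 0.914 and 0.766 in lung, 0.298 and 0.465 in liver, while kidney had 0.171 and 0.151. Ccne2, cyclin E2, was at 1.05 and 1.86 in small intestine, 0.761 and 0.559 in lung, 0.227 and 0.532 in liver, with 0.390 and 0.300 in kidney. The order of tissue means was the same for both cyclins. Ccne2 was called in no comparison, and Ccne1 was called higher in small intestine, by 1.02 ± 0.12 over liver (adjusted p = 0.000267) and 1.26 ± 0.12 over kidney (adjusted p = 8.77e-05). The call over liver was lost without liver replicate 1 (0.93) and without small intestine replicate 1 (0.96). Mybl2, the B-Myb factor that turns on late genes, is counted here among the S phase members. It was at 1.38 and 1.61 in small intestine, 0.782 and 0.725 in lung, 0.299 and 0.167 in liver, while kidney had 0.294 and 0.0696.

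E2f1, an activator of S phase genes, had values in small intestine, lung and liver that lay close together after scaling but not before it. Its levels were 2.91 and 2.67 scaled FPKM in lung, 2.65 and 2.23 in small intestine, 2.39 and 2.01 in liver, with 1.44 and 1.02 in kidney, so that small intestine and liver overlapped and kidney was lowest. The log2 difference of small intestine from lung was -0.14, with a 95% interval from -0.52 to 0.23, and E2f1 was called in no comparison. As deposited, its FPKM were 5.26 and 5.05 in lung, 2.91 and 2.32 in small intestine, and 1.31 and 1.26 in liver, and lung was called higher than liver, by 1.43, and than kidney, by 1.57. After scaling, the largest of its differences, 0.77 ± 0.16 of lung over kidney (adjusted p = 0.00455), was under the size needed.

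**Figure D3:**
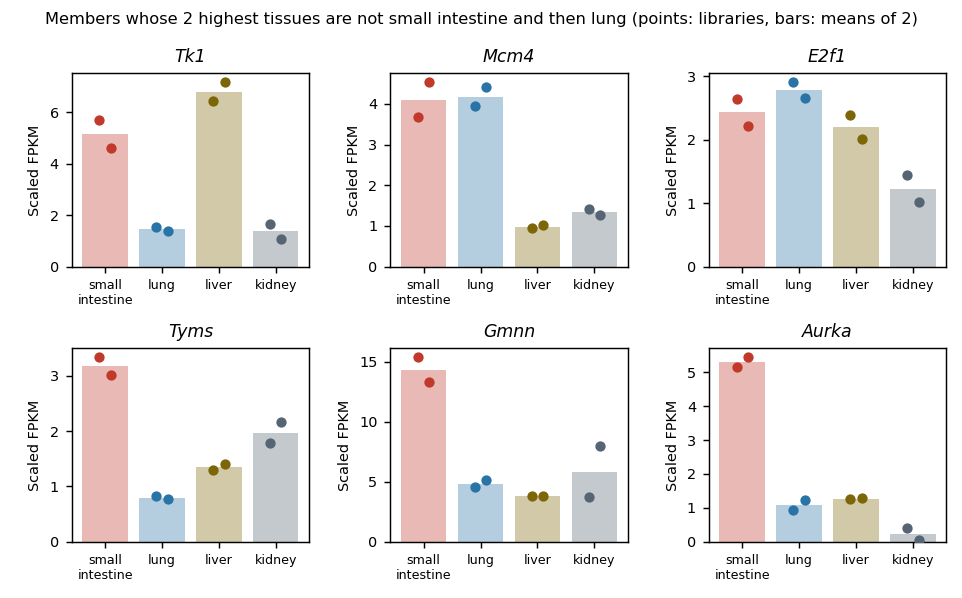
Scaled FPKM of the 6 members whose highest tissue was not small intestine or whose next highest was not lung, by tissue means, with points for the libraries and bars for the mean of 2 libraries, on linear axes from 0. Tk1 is highest in liver, Mcm4 and E2f1 in lung, Tyms is lowest in lung, the 2 kidney libraries of Gmnn lie at 3.72 and 7.98, and in Aurka, a mitotic kinase, liver lies just above lung.

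The 14 regulators of mitosis showed a larger contrast. Cdk1, the kinase that starts mitosis, was at 6.16 and 6.13 scaled FPKM in small intestine, 1.32 and 1.16 in lung, 0.562 and 0.533 in liver, while kidney had 0.285 and 0.408, with no overlap between any 2 tissues. Small intestine exceeded lung by a log2 difference of 1.67 ± 0.13 (adjusted p = 2.5e-05) and kidney by 2.41 ± 0.13 (adjusted p = 4e-06). Its partners, the B-type cyclins, had the same order of tissue means. Ccnb1 was at 5.89 and 7.80 in small intestine, 1.07 and 1.05 in lung, 0.376 and 0.110 in liver, with 0.215 and 0.191 in kidney. Ccnb2 was higher, at 18.3 and 17.0 in small intestine, 3.55 and 3.61 in lung, 1.29 and 0.607 in liver, while kidney had 0.860 and 0.474. The kidney and liver libraries of Ccnb1 and of Ccnb2 overlapped. Ccnb2 was called between lung and both lower tissues (1.25 ± 0.21 over liver, adjusted p = 0.00133), although without liver replicate 2 the difference from liver was 0.996 and was not called.

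Ube2c, a ubiquitin-conjugating enzyme of the anaphase-promoting complex, had the largest differences of small intestine from lung, liver and kidney among the 42 members tested, on the scale of log2(scaled FPKM + 1). It stood at 17.4 in both libraries of small intestine, at 1.98 and 2.19 in lung, 0.381 and 0.417 in liver, with 0.244 and 0.310 in kidney. That is 8.34 times the lung mean, and log2 differences of 2.58 ± 0.13 over lung (adjusted p = 3.85e-06) and 3.85 ± 0.13 over kidney (adjusted p = 6.37e-07). Of its exon bases, 22.8% overlap Tnnc2 on the other strand, and the strand of the counting is not given in the sources used here. Cdc20, an activator of the same complex, was at 10.3 and 11.2 in small intestine, 1.76 and 2.89 in lung, 0.530 and 0.0829 in liver, while kidney had 0.340 and 0.431. Lung exceeded liver by 1.35 ± 0.23 (adjusted p = 0.00135), although the liver values came from 5 reads and 1 read.

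Plk1, a kinase of spindle assembly and cytokinesis, was at 7.68 and 7.81 scaled FPKM in small intestine and 1.13 and 1.68 in lung, against 0.0901 and 0 in liver and 0.351 and 0.110 in kidney. Its liver values stood for 1 read and 0 reads, so that the level there was not detectable at this depth. Foxm1, the forkhead factor that drives late genes, was low, at 1.45 and 1.81 in small intestine, 0.698 and 0.473 in lung, 0.0344 and 0.0807 in liver, with 0.142 and 0.140 in kidney. Its difference of 0.73 ± 0.12 between small intestine and lung passed the adjusted p (0.00173) but not the size needed for a call, as did that of the checkpoint kinase gene Bub1b (0.94 ± 0.11, adjusted p = 0.000204). All 14 of these regulators were called higher in small intestine than in liver and in kidney, and 12 than in lung, where 16.5%, 15.7% and 16.6% of all genes tested were called higher. Of the 14, Cdc25c, Foxm1 and Bub1 passed the filter through the small intestine libraries only. For Bub1 the difference from lung was 0.85 without small intestine replicate 2 and was not called. Bub1, another checkpoint kinase, was listed at 0 in both liver libraries. The remaining regulators were 5.17 (Ccna2, cyclin A2), 6.20 (Cdc25c, a phosphatase that activates CDK1), 3.99 (Aurkb, a kinase of chromosome attachment) and 5.58 times (Birc5, its partner survivin) as high in small intestine as in lung, and all 4 were called. Aurka was the one mitotic member in which the lung libraries did not exceed those of liver, at 0.939 and 1.23 in lung and 1.25 and 1.28 in liver, with a log2 difference of -0.13 and a 95% interval from -0.52 to 0.27. With the FPKM as deposited the difference was 0.78.

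The 11 genes of the spindle and chromosomes were all highest in small intestine and next highest in lung. Mki67, which encodes the Ki-67 protein that coats mitotic chromosomes and is the usual stain for dividing cells, was at 5.96 and 6.25 scaled FPKM in small intestine, 1.67 and 1.71 in lung, 0.217 and 0.169 in liver, while kidney had 0.257 and 0.0561. Top2a, a topoisomerase that untangles sister chromatids, was at 9.72 and 9.91 in small intestine, 2.72 and 1.89 in lung, 0.176 and 0.670 in liver, with 0.287 and 0.107 in kidney. In both genes small intestine and lung were apart from each other and from the rest, while liver and kidney overlapped. Small intestine exceeded lung by a log2 difference of 1.4 ± 0.14 in Mki67 (adjusted p = 8.83e-05) and 1.72 ± 0.21 in Top2a (adjusted p = 0.000319). Lung exceeded liver by 1.17 ± 0.14 in Mki67 (adjusted p = 0.000176) and 1.23 ± 0.21 in Top2a (adjusted p = 0.0016). Without liver replicate 1 the latter was 0.97 and was not called. For Mki67 the difference of liver from kidney was 0.05, with a 95% interval from -0.27 to 0.37.

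In Cenpa, the histone variant of centromeres, all 4 tissues were apart, with 4.97 and 6.23 in small intestine, 2.21 and 1.76 in lung, 0.947 and 1.43 in liver, while kidney had 0.341 and 0.193. Lung exceeded kidney by 1.24 ± 0.18 (adjusted p = 0.000705). Of the kinesin motors, Kif11, which pushes spindle poles apart, was 3.90 times as high in small intestine as in lung, Kif23 2.74 times and Kif20a 2.34 times, of which Kif11 alone was called. Cenpe, another kinesin motor, was 3.59 times as high in small intestine as in lung, with a log2 difference of 0.79 ± 0.10 that was under the size needed. Exon overlap with Cdc23 covers 29.3% of Kif20a. Nusap1 and Tpx2, which stabilise spindle microtubules, were called higher in small intestine than in each other tissue, but without lung replicate 2 the difference of Tpx2 from lung was 0.92 and was not called. Cenpf and Prc1, which did not pass the filter, were 3.87 and 2.22 times as high in small intestine as in lung.

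Counted over the set, small intestine was called higher than lung for 24 members and lower for 0, where 16.6% of all genes tested were called higher and 15.5% lower. These 24 were 18 of 23 mitotic and 6 of 19 S phase members tested. With the FPKM as deposited, which shift the median log2 difference of all genes to -0.57, 10 members were called higher and 0 lower, and all genes split into 1644 higher and 4990 lower in place of 2577 and 2404. Against liver, 36 members were called higher and 0 lower (background 16.5% and 15.2%), 22 mitotic and 14 of S phase. Against kidney, 37 were called higher and 0 lower (background 15.7% and 14.5%), 23 mitotic and 14 of S phase. The 3 comparisons share the small intestine libraries and are not independent of each other. The 42 members tested include the 9 that passed the filter through small intestine only, so these counts are partly set by the filter. With each library left out in turn, 21 of the 24, 32 of the 36 and 32 of the 37 members kept their calls throughout. The calls lost were those of Bub1, Pcna and Tpx2 over lung, of Ccne1, Cdc6, Mybl2 and Rrm1 over liver, and of Cdc6, Gmnn, Kif20a, Mcm6 and Mybl2 over kidney.

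Lung was called higher than liver for 13 members (background 20%) and lower for 1, Tk1 (background 19.3%), and higher than kidney for 10 (background 17.8%) and lower for 0 (background 17.9%). Of these, 8 of 13 and 8 of 10 kept their calls with each library left out in turn, and Ccnb2, Mcm3, Nusap1, Pcna and Top2a lost theirs over liver and Cdc20 and Mcm5 theirs over kidney. Most mitotic members were below a scaled FPKM of 1 in liver and kidney, where adding 1 shortens a log2 difference. With 0.1 added in place of 1, lung was called higher than liver for 28 members (background 26.7%) and higher than kidney for 30 (background 23.3%). With the FPKM as deposited, which shift the median of all genes by 1.13 between lung and liver and 0.81 between lung and kidney, the counts were 34 and 32 (55.5% and 41.4% of all genes tested), and all genes split into 9058 higher and 1178 lower than in liver in place of 3105 and 2999. Between liver and kidney, 1 member was called higher in liver, Tk1 (background 11.6%), and 1 lower, Mcm6 (background 12.1%), with 0 of 23 mitotic members called. Few reads lie behind the mitotic values of these 2 tissues. The median mitotic member had 5 and 4 reads in the liver libraries and 23 and 10 in the kidney libraries, and 8 and 9 members had fewer than 3 reads in liver.

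**Figure D4:**
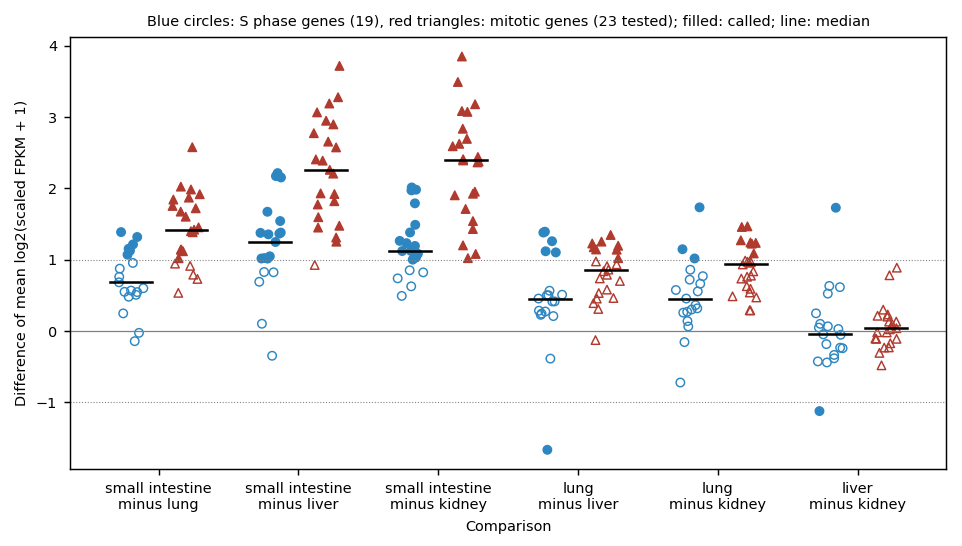
Log2 differences of the 42 tested members in the 6 comparisons of tissues, on log2(scaled FPKM + 1), with blue circles for S phase and red triangles for mitotic genes. Filled symbols are called, black lines are medians and dotted lines mark the size needed for a call. In each comparison with small intestine the mitotic median (1.42, 2.26 and 2.39) lies above the S phase median (0.68, 1.25 and 1.12).

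S phase and mitotic members gave the same leading tissues, but on different ranges. The summed level of the 19 S phase members was 126 ± 7.03 scaled FPKM in small intestine, 62.2 ± 7.09 in lung, 37.7 ± 1.44 in liver and 38.2 ± 2.01 in kidney (SD, n = 2). That of the 25 mitotic members was 147 ± 5.43, 32.7 ± 0.987, 7.93 ± 1.73 and 5.95 ± 1.59. The ratio of small intestine to lung was thus 2.02 for S phase and 4.48 for mitosis. For small intestine to liver it was 3.34 and 18.5, and for small intestine to kidney 3.30 and 24.7. These ratios depended on the scaling, and from the FPKM as deposited they were 1.17 and 2.60 against lung, with the S phase sums of small intestine (144 and 126) and lung (104 and 127) overlapping, 6.11 and 34.1 against liver, and 4.09 and 29.4 against kidney. Pcna supplied 19.7% to 33.6% of the S phase sum in a library.

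The mitotic share of the summed level fell with the order of tissues, from 53.8% ± 2.31 in small intestine to 34.6% ± 3.26 in lung, 17.3% ± 2.59 in liver and 13.5% ± 3.73 in kidney. Liver, with 19.1% and 15.5%, and kidney, with 16.1% and 10.9%, overlapped, and the other tissues did not. Within a library this share does not depend on the scaling. It does depend on the length set for each gene, which is the same in every library. Expressed as the median S phase level minus the median mitotic level, on log2(scaled FPKM + 1), small intestine had -0.40 and -0.22, lung 0.35 and 0.61, liver 0.76 and 0.96, and kidney 0.70 and 0.92. On this measure mitotic genes were the higher class in small intestine alone. This sign depended on the summary, since with means over members in place of medians the value in small intestine was -0.001048, the mean of 0.076 and -0.078 in the libraries.

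**Figure D5:**
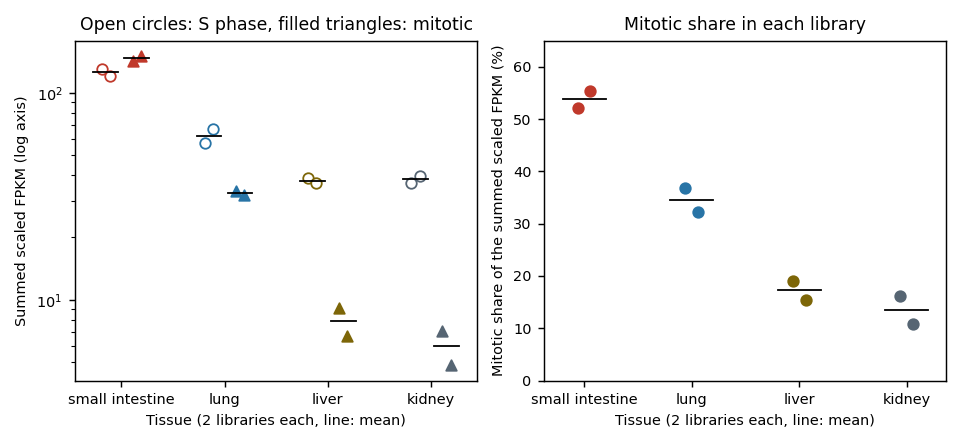
Left, summed scaled FPKM of the 19 S phase genes (open circles) and 25 mitotic genes (filled triangles) in each library, on a log axis, with lines at tissue means. Right, the mitotic share of the sum in percent, from 10.9% in kidney replicate 2 to 55.5% in small intestine replicate 2.

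Other genes of these pathways were taken from further lists, which, like the members, were set with earlier results of these data known. Of 20 further S phase genes 16 were tested, and 6, 6 and 8 were called higher in small intestine than in lung, liver and kidney, with 0, 1 and 0 lower. Of 25 further mitotic genes 22 were tested, and 11, 19 and 20 were called higher, with 0, 1 and 0 lower. Of all genes tested, 16.6%, 16.5% and 15.7% were called higher in these comparisons and 15.5%, 15.2% and 14.5% lower. In the further S phase genes lung was called higher than liver for 1 and lower for 2. Over kidney these counts were 0 and 1. In the further mitotic genes they were 3 and 1 over liver and 3 and 1 over kidney. The background was 20% higher and 19.3% lower over liver, and 17.8% and 17.9% over kidney. Cdca3 and Pbk had the largest differences among those called higher in small intestine. Cdca3, which triggers entry into mitosis, was at 12.6 and 11.2 scaled FPKM in small intestine against at most 1.38 elsewhere. The lists also held genes highest in liver, as Tk1 was. Mcm10, a replication initiation factor, reached 10.7 and 10.1 in the liver libraries, compared with 2.33 and 1.71 in small intestine and at most 0.460 in lung and kidney. Ccnf, cyclin F, reached 10.7 and 11.3 there, compared with 3.35 and 3.87 in small intestine and at most 1.0 in lung and kidney. These are the genes called lower in small intestine than in liver, by -1.92 and -1.38 on the log2 scale.

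Spc25, a kinetochore subunit, was highest in kidney, at 5.74 and 8.24, against 3.77 and 4.40 in small intestine. Pttg1, securin, was lowest in small intestine, at 8.93 and 6.51, against 11.0 to 16.8 in the other 6 libraries, with no call. Fen1 was listed at or near 0 in every library, and 84.2% of its exon bases overlap other genes.

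Genes that act before the commitment to S phase had no common order. Of the 6 G1 cyclins and kinases, Ccnd1, cyclin D1, was highest in kidney (19.8 and 19.1 scaled FPKM) and lower in small intestine (2.20 and 3.88) than in lung (11.1 and 7.12). Ccnd2 was highest in small intestine (6.68 and 10.1), and Ccnd3 in lung (7.72 and 7.02). Their kinase Cdk4 was between 10.5 and 22 in all 8 libraries with no call. In all, 0 of the 6 were called higher in small intestine than in lung and 2 lower, Ccnd1 and Ccnd3 (background 16.6% and 15.5%). Against liver 1 was called higher, Ccnd2, and 0 lower (background 16.5% and 15.2%), and against kidney 1 was higher, Ccnd2, and 2 lower, Ccnd1 and Ccnd3 (background 15.7% and 14.5%). Among the 8 inhibitors, Cdkn1a, the p21 inhibitor of cyclin-dependent kinases, was at 71.9 and 124 in small intestine and 82.2 and 54.2 in lung against at most 8.91 in liver and kidney, a log2 difference of 3.35 over liver. Cdkn1c, the p57 inhibitor, was highest in lung, at 7.43 and 7.77. Of the 8 inhibitors, 0, 3 and 2 were called higher in small intestine than in lung, liver and kidney, and 1, 0 and 0 lower. Of 7 other E2F genes, E2f2 was at 5.43 and 5.39 in small intestine and 4.46 and 4.22 in lung against at most 1.07 in liver and kidney, and E2f8, a repressor, was called higher in liver than in kidney (1.06, but 0.989 and not called without liver replicate 2). E2f5 was highest in kidney, at 14.4 and 19.8. Of the 6 other E2F genes tested, 1, 1 and 2 were called higher in small intestine than in lung, liver and kidney, and 0, 0 and 1 lower. The background shares for these 2 lists are those given for the G1 cyclins and kinases.

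Markers of cell types that could carry these transcripts moved with the tissues as well. The summed level of 5 crypt stem cell markers (Lgr5, Ascl2, Olfm4, Smoc2 and Axin2) was 188 to 233 scaled FPKM in small intestine and at most 11.3 in the other tissues, most of it from Olfm4. Lgr5, the defining marker, was at 0.681 and 0.692 in small intestine and at 0.502 and 1.12 in liver. Of 6 pancreatic acinar markers all were called higher in small intestine than in every other tissue, with sums of 973 to 1981 against at most 106 elsewhere. The background was 16.6% over lung, 16.5% over liver and 15.7% over kidney. The 5 B cell markers summed to 388 to 523 in lung and 312 to 559 in small intestine, against at most 14.3 in liver and kidney. All 5 were called higher in lung than in liver (background 20%). In small intestine 4 of the 5 were called lower than in lung and 0 higher (background 15.5% and 16.6%). Their median log2(scaled FPKM + 1) was 2.44 to 2.70 in small intestine and 4.94 to 5.41 in lung, unlike the sums. The 5 T cell markers summed to 12.4 to 16.4 in lung and 11.2 to 12 in small intestine, against at most 0.983 elsewhere. The 5 macrophage markers did not have that order, with sums of 42.3 to 50.9 in lung, 41.2 to 49.5 in liver, 17.2 to 24.2 in small intestine, and 9.79 to 9.91 in kidney. The part of any of these cell types in the levels of the cell cycle genes was not tested.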

How the data were processed

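Bulk libraries of 4 tissues with 2 replicates each were analysed, grouped by their titles. The authors deposited FPKM values. By the methods of the study, bbduk picked the reads of each sample index, STAR (version 2.5.3a in the submitters' processing notes) mapped them to the mouse genome, and DESeq2's fpkm function gave the FPKM. FPKM are not counts, so no count model was the main test. Each library was divided by a median-of-ratios size factor (0.551 to 1.89), and log2(scaled FPKM + 1) of 15542 genes was tested with limma 3.58.1 (R 4.3.3) in a fit of 4 tissue means over all 8 libraries, with Benjamini-Hochberg adjustment over all genes within each comparison. The replicates are separate samples of a tissue, and n = 2 limits every estimate of spread.

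Reads behind each value were recovered from the steps of low values and GENCODE M21 exon lengths. Of values below 50 reads, 94.6% to 96.1% per library were whole within 0.02. Fewer than 3 reads were taken as not detectable, a limit of counting error only. Tools for tables and figures were Python 3.11.15, numpy 2.4.6, pandas 2.3.3 and matplotlib 3.10.9, and the fit was tested on simulated data. An exact permutation test of single members was also run, but its p-values only restate which libraries lie highest and are not given.

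The members and all lists were chosen with earlier results of these data known. All members are accounted for. Values in every library are given for 13 preset members, for the 2 members of each role group with the largest difference of small intestine from the mean of the other tissues, for up to 12 members called between other tissues, and for members highest outside small intestine. Up to 4 genes per other list were named by size of difference, and Spc25, Pttg1, Fen1, Cdk4 and the named markers were chosen after their values were seen. Marker lists of macrophages and of the other tissues served to check the labels. Alternatives changed the scaling, pseudocount, filter, model and libraries. Single-cell data and the deconvolution of the study were not used here. Values of some single genes on the further lists are not reported here.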

Additional observations from a re-analysis of the deposited data

Results flagged for a closer look

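The difference between the median S phase and the median mitotic level, on log2(scaled FPKM + 1), had opposite signs in small intestine and the other tissues. It was -0.31 ± 0.126 in small intestine, 0.48 ± 0.181 in lung, 0.86 ± 0.138 in liver and 0.81 ± 0.156 in kidney (SD, n = 2). Both small intestine libraries were below 0 and all 6 others above it. Small intestine was thus lower than lung by -0.79, than liver by -1.17 and than kidney by -1.12. These differences between tissues were not tested, and the 3 share the small intestine libraries. With means in place of medians the 2 small intestine libraries lay on either side of 0.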

How the results depend on the processing

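Shares of all genes tested that were called the same way in the same setting are given in parentheses. With the FPKM as deposited, 10 members were called higher in small intestine than in lung (10.1%), 34 higher (55.5%) and 0 lower (7.21%) in lung than in liver, and 32 higher in lung than in kidney (41.4%). With a pseudocount of 0.1, lung was higher than liver for 28 members (26.7%), higher than kidney for 30 (23.3%) and lower for 1 (21.4%), and liver was higher than kidney for 4 (14.7%) and lower for 4 (17.3%). With limma-voom on the recovered reads the same counts were 29 (25.7%), 31 (24.2%), 1 (22.1%), 4 (15.4%) and 4 (16.1%). Without the size threshold, an alternative chosen after seeing the data, small intestine was higher than lung for 39 (25.7%), lung higher than liver for 30 (30%) and lower for 2 (28.6%), lung higher than kidney for 31 (27.3%) and lower for 1 (27.4%), and liver higher than kidney for 6 (18.3%). With quantile normalization liver was higher than kidney for 2 (10.2%). Leaving out each library in turn gave 23 to 24, 34 to 36 and 35 to 37 members higher in small intestine than in lung, liver and kidney, 9 to 15 and 10 to 12 higher in lung than in liver and kidney, and 1 to 2 higher in liver than in kidney, with 2 without kidney replicate 1. The tissue medians were 2.67 in small intestine, 1.87 in lung, 0.331 in liver and 0.362 in kidney with the FPKM as deposited, where liver and kidney change places. They were 2.49, 1.4, 0.757 and 0.715 with means over members, and 2.35, 0.619, -0.89 and -1.23 with a pseudocount of 0.1, whose log scale falls below 0. S phase minus mitotic was -0.001048 in small intestine with means over members, 0.734 in lung with the pseudocount of 0.1, 0.595 and 2.22 in liver with the FPKM as deposited and the pseudocount of 0.1, and 0.973 and 2.01 in kidney with means and the pseudocount of 0.1. The small intestine to lung difference of Mcm4, -0.03, ranged from -0.15 to 0.095 with a library left out, at 0.04 without lung replicate 2 and 0.095 without small intestine replicate 1, and was -0.70 with the FPKM as deposited. With the FPKM as deposited, small intestine minus lung of Mcm3 was -0.43, small intestine minus liver of Tk1 was 0.38, and lung minus liver was 0.46 for Tyms and 0.78 for Aurka. The liver to kidney difference of Mki67, 0.05, was -0.044 in that setting and ranged from -0.076 (without kidney replicate 2) to 0.18 with a library left out. Deviations of libraries with equal replicate numbers had correlations of -0.22 to 0.03 between tissues. These cannot tell whether such libraries came from the same mouse, since an animal need not differ in the same genes in each tissue. With the replicate block the counts of 24, 36, 37, 13 and 10 members stayed as they were. The cause of these changes was not tested. Depth limits liver, where the median mitotic member had 5 and 4 reads.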
